A study of Mus musculus with 9 samples.

Results

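The guanylate-binding proteins (GBPs) are a family of large GTPases that cells make in response to interferon. The genes described are Gbp2, Gbp3, Gbp4, Gbp5, Gbp6, Gbp7, Gbp8, Gbp9 and Gbp10, chosen by gene symbol, 9 of the 53465 mouse genes counted. RNA was sequenced from heart tissue that the labels name as the infarct border zone, although sham hearts had no ligation. All animals were NOD-SCID mice, a strain that makes almost no mature T or B cells but keeps macrophages, neutrophils and natural killer cells of reduced function. The 3 groups, with 3 libraries each, were sham surgery, coronary artery ligation, and coronary artery ligation with implantation of cells named FOXO3-GE-MPCs, called the cell group below. The labels do not spell that name out, and they give no age, sex, time after surgery or cell dose, nor a ligated group that received other cells or vehicle. They do not say that the libraries came from separate animals, so the p-values below measure the spread between libraries, which may be technical.

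Interferon-gamma, made mainly by T cells and natural killer cells, binds the receptor Ifngr1-Ifngr2, which signals through the kinases Jak1 and Jak2. The signal reaches genes through gamma-activated sites (GAS) and, by way of Irf1 and other interferon regulatory factors, through interferon-stimulated response elements (ISRE), and GBP genes are classical targets of both. The proteins assemble on membranes that hold intracellular bacteria or parasites, and they act together with the immunity-related GTPases (IRGs) and with inflammasomes. In tissues without infection, GBP transcripts are commonly read as a sign of interferon signalling in macrophages, endothelial cells and other cells.

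The 9 genes lie in 2 clusters. On the plus strand of chromosome 3 of GRCm38 are Gbp5 (ENSMUSG00000105504, chr3:142493978-142522344), Gbp7 (ENSMUSG00000040253, chr3:142530342-142550149), Gbp3 (ENSMUSG00000028268, chr3:142560026-142573209) and Gbp2 (ENSMUSG00000028270, chr3:142620602-142638008). On the minus strand of chromosome 5 are Gbp8 (ENSMUSG00000034438, chr5:105014150-105139540), Gbp9 (ENSMUSG00000029298, chr5:105077630-105139539), Gbp4 (ENSMUSG00000079363, chr5:105115767-105139586), Gbp10 (ENSMUSG00000105096, chr5:105215699-105239533) and Gbp6 (ENSMUSG00000104713, chr5:105270702-105293698). All are annotated as protein-coding, and their counts are reads over their exons. The annotated spans of Gbp8, Gbp9 and Gbp4 overlap, and these genes share 60 to 61 bases of exon.

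The chromosome 5 genes are close copies. Coding sequences of the 10 pairs within chromosome 5 were 89.6% to 98.4% identical, compared with 61.6% to 78.3% for the 6 pairs within chromosome 3 and 60.9% to 75.0% for the 20 pairs with a gene on each. Gbp6 and Gbp10 were the closest pair, with 1803 of 1833 coding bases identical and an identical run of 421 bases. The stretch in which these 2 genes differ most, coding bases 1556 to 1645 counted from the start codon, is shown because reads over it can tell them apart, with capitals at the 12 differing bases.
Gbp6: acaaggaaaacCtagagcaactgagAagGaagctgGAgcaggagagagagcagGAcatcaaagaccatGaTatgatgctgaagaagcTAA
Gbp10: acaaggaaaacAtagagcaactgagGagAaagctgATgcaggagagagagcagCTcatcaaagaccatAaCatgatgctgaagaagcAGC
Sharing of short stretches bears on the counts of these genes. Of the 31-base words in its exons, Gbp10 had 89.8% and Gbp6 had 74.3% in at least 1 other gene. The share was 31.1% in Gbp8, 18.3% in Gbp9, 14.9% in Gbp4 and 14.7% in Gbp7, and it was 5.64% in Gbp3, 4.85% in Gbp2 and 3.10% in Gbp5. Most of the share of Gbp7, 10.8% of its words, was with an overlapping pseudogene, Gm43802. Part of the sharing of Gbp6 and Gbp10 was with a read-through gene, Gm43302, listed at 0 counts in every library. Gm43302 covers 29.0% of the exon bases of Gbp6 and 46.3% of those of Gbp10. It held 67.8% of the words of Gbp6, of which Gbp10 held 51.4%, and Gbp6 held 80.8% of the words of Gbp10. Values of Gbp6, Gbp10 and Gbp8 are therefore uncertain as to which copy the reads came from, and those of Gbp4 and Gbp9 less so.

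**Figure D1:**
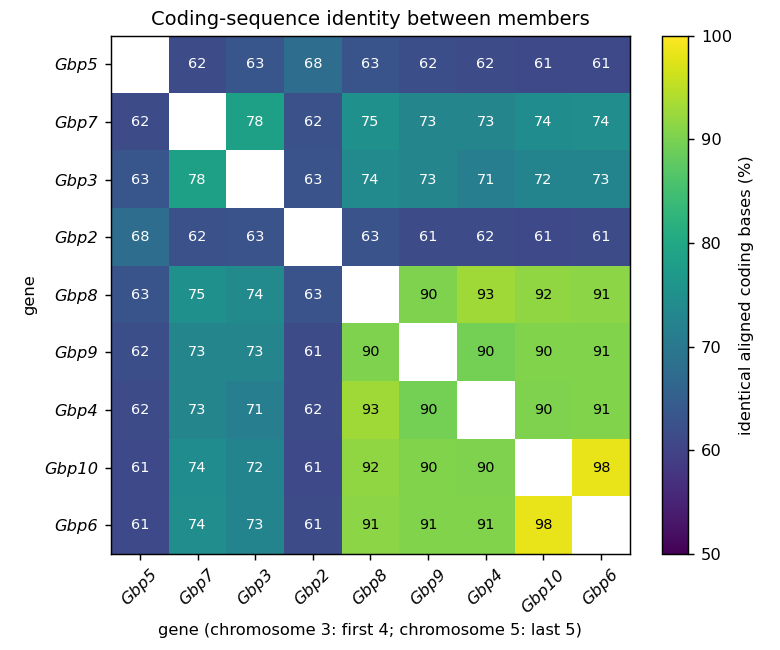
Percentage of identical aligned coding bases for each pair of the 9 genes, ordered along chromosome 3 (first 4) and chromosome 5 (last 5), with colour from 50% to 100%. The chromosome 5 pairs form a block between 89.6% and 98.4%, and Gbp6 with Gbp10 is the brightest square.

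Sequence before a RefSeq transcription start was at hand for the 4 chromosome 3 genes, on GRCm38.p6. RefSeq starts differ from the GENCODE spans printed above, so the Gbp5 window lies inside the GENCODE span of Gbp5, and the ends of the Gbp3 and Gbp2 windows lie inside those of their genes. It is shown because these genes moved together in the data below and because the motifs searched are those that interferon signalling factors are known to bind. Each window runs from about 250 bases before the annotated start towards it, on the plus strand, and is trimmed to keep no more than 30 bases of any annotated exon. Capitals mark the GAS letters (TTC, any 3 bases, GAA) or the ISRE core (GAAA, any 2 bases, GAAA), searched on both strands of the whole RefSeq window, which runs on past the start.
Gbp5, chr3:142496684-142496929: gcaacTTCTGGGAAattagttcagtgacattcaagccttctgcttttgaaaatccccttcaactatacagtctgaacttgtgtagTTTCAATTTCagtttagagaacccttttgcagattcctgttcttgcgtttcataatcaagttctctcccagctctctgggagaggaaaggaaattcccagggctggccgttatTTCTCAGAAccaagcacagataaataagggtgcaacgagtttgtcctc
Gbp7, chr3:142530086-142530335: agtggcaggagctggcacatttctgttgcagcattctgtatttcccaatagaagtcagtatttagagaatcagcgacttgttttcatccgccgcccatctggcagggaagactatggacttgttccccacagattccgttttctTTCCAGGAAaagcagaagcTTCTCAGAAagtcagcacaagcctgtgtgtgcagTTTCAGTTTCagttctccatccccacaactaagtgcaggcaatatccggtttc
Gbp3, chr3:142559794-142560043: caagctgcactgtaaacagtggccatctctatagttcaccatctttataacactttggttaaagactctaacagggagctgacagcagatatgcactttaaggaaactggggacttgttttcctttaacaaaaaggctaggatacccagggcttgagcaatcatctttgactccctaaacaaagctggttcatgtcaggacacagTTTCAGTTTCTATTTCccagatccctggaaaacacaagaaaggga
Gbp2, chr3:142620413-142620631: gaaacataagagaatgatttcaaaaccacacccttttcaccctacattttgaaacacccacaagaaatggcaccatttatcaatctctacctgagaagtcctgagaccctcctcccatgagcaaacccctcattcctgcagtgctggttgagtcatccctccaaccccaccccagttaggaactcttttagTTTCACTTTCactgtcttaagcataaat
All 4 windows held the ISRE core, each time on the opposite strand. It stood 165 to 156 bases before the RefSeq start in Gbp5, 53 to 44 in Gbp7, 59 to 50 in Gbp2, where GENCODE has exon, and in Gbp3 at 45 to 36 and, overlapping that match, 39 to 30. Gbp5 held GAS matches at 245 to 237 and at 52 to 44 bases before the start, and Gbp7 held them at 106 to 98 and at 87 to 79. Over 32851 whole RefSeq windows, all of the length searched here, 3.44% held the ISRE core, 8.30% held the GAS letters and 0.454% held both. A match is a description of the letters, and binding was not measured. A further annotated start of Gbp3 left only 30 bases after trimming, which held neither motif. Promoters of Gbp4, Gbp6, Gbp8, Gbp9 and Gbp10 were not analysed here.

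Between 4549268 and 7515052 reads per library were assigned to genes. Levels are given in CPM, counts divided by the library's total in units of 1e+06 counts, with trimmed-mean (TMM) factors between libraries, and a level of 3 counts equals 0.375 to 0.639 CPM. Counts of each pair of replicates differed by more than sampling noise. T cell markers summed to 1.13 to 3.41 CPM over 7 genes in all 9 libraries, with Cd3d at 0 counts throughout, and of the B cell markers Ms4a1 was at 0 counts throughout. Ighm, another B cell marker, had 23 to 144 counts per library, and it rose by 0.66 on the log2 scale after ligation and fell by 1.49 with cells relative to ligation (edgeR adjusted p = 0.0133 and 6.99e-05). Cardiomyocyte markers summed to at least 39804 CPM in every library. The sham libraries also stood apart from both ligated groups in a few genes named after their values were seen. Trim12a had 45 to 58 counts in sham libraries and 0 in the other 6, and Hba-a2 had 33 to 60 against 0 to 3 counts. Rpl29 averaged 112 CPM ± 11.2 (SD, n = 3) in sham against 1.77 ± 0.211 after ligation and 0.986 ± 0.353 with cells. The labels give the same strain for all 9 libraries, and the part of this difference in the comparisons with sham was not tested.

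GBP transcripts were most abundant in sham hearts, lower after ligation and lowest after ligation with cells. Summed over the 9 genes, they stood at 631, 630.3 and 694 CPM in the sham libraries, 377, 342 and 361 CPM after ligation and 233, 218 and 220.0 CPM with cells. The 3 groups did not overlap in this sum. In bulk tissue, fewer cells of a type and less RNA per cell cannot be told apart.

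Among the chromosome 3 genes, Gbp2, which is prenylated and coats pathogen vacuoles, stood at 111, 114 and 119 CPM in sham replicates 1 to 3, at 85.2, 75.7 and 75.5 CPM after ligation and at 47.4, 43.1 and 43.2 CPM with cells. The ranges of the 3 groups were apart, and each step down was larger than the spread within a group. Relative to sham, Gbp2 fell by 0.55 on the log2 scale after ligation (SE 0.0672, adjusted p = 1.41e-06, edgeR's quasi-likelihood test). With cells it fell by a further 0.82 relative to ligation (SE 0.0718, edgeR adjusted p = 1.02e-07), which left it 2.57-fold below sham. Gbp2 was the most abundant of the 9 per length, at 45.6 CPM per kilobase of exon in sham.

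Gbp3 stood at 84.4, 95.1 and 94.0 CPM in sham, 49.9, 46.3 and 50.9 CPM after ligation and 33.2, 32.5 and 28.4 CPM with cells, again with no overlap between groups. Its log2 change was -0.90 (SE 0.0761, edgeR adjusted p = 7.75e-09) from sham to ligation and -0.64 (SE 0.0835, edgeR adjusted p = 2.03e-05) from ligation to cells. Gbp7, which has been tied to the oxidative burst of phagocytes, stood at 101, 98.4 and 124 CPM in sham, 52.8, 55.1 and 58.1 CPM after ligation and 40.4, 36.8 and 36.9 CPM with cells. The sham libraries of Gbp7 were more spread than the others, at 108 CPM ± 14.0 (SD, n = 3), and still did not reach the ligation range. The log2 change of Gbp7 was -0.96 (SE 0.0828, edgeR adjusted p = 1.01e-08) after ligation and -0.55 (SE 0.0899, edgeR adjusted p = 0.000297) with cells relative to ligation.

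Gbp5, a prenylated member that has been tied to the NLRP3 inflammasome, stood at 65.1, 64.6 and 67.5 CPM in sham, 31.5, 27.5 and 34.4 CPM after ligation and 22.6, 21.9 and 22.5 CPM with cells. The main drop of Gbp5 lay between sham and ligation, with a log2 change of -1.08 (SE 0.0852, edgeR adjusted p = 2.66e-09). From ligation to cells it was -0.48 (SE 0.0949, edgeR adjusted p = 0.00176), from 31.1 CPM ± 3.46 to 22.3 ± 0.346 (SD, n = 3).

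On chromosome 5, Gbp4 was the member with the steepest fall among those with more than 100 counts in every library. It stood at 135, 136 and 146 CPM in sham, 66.7, 53.4 and 59.4 CPM after ligation and 24.3, 21.1 and 23.8 CPM with cells. The lowest sham library was above 2 times the highest ligation library, and the lowest ligation library was likewise above 2 times the highest cell library. The log2 change was -1.22 (SE 0.0757, edgeR adjusted p = 6.01e-11) after ligation and -1.37 (SE 0.0890, edgeR adjusted p = 8.70e-10) with cells relative to ligation, and Gbp4 ended 6.03-fold below sham.

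Gbp9, whose span overlaps that of Gbp4, had smaller differences. It stood at 87.0, 77.4 and 91.0 CPM in sham, 61.6, 56.6 and 56.9 CPM after ligation and 50.5, 50.2 and 51.6 CPM with cells. After ligation Gbp9 fell by 0.55 on the log2 scale (SE 0.0715, edgeR adjusted p = 3.14e-06). Ligation and cell libraries did not overlap, but the log2 difference of -0.20 (95% interval -0.35 to -0.04) missed the threshold (edgeR adjusted p = 0.105). Relative to sham, Gbp9 was 1.68-fold lower with cells (edgeR adjusted p = 4.47e-08), the smallest of the 9 differences in that comparison.

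Gbp6 stood at 34.0, 30.97 and 38.6 CPM in sham, 20.5, 19.0 and 18.9 CPM after ligation and 12.3, 10.5 and 11.8 CPM with cells. Its log2 change was -0.84 (SE 0.113, edgeR adjusted p = 5.32e-06) and then -0.74 (SE 0.128, edgeR adjusted p = 0.000488), with groups that did not overlap. Gbp10, its near copy, stood at 11.2, 11.4 and 11.1 CPM in sham and 5.11, 4.05 and 4.0 CPM after ligation. With cells Gbp10 had 7, 3 and 8 counts, or 0.993, 0.416 and 1.15 CPM, close to the level of 3 counts and in 1 library at it. The log2 change of Gbp10 was -1.37 after ligation (SE 0.228, edgeR adjusted p = 6.22e-05) and -2.32 with cells relative to ligation (SE 0.338, edgeR adjusted p = 7.96e-05). Since Gbp10 passed the filter on low counts only through sham and ligation, where it was high, the test was also read with no filter, where it gave -2.32 (edgeR adjusted p = 1.44e-08). Read sequences over the 12 differing bases printed above were not analysed here, so the split of reads between Gbp6 and Gbp10 was not tested. With the counts of Gbp6, Gbp10 and Gm43302 summed into 1 row, the log2 changes were -0.95 and -0.93, both past the threshold (edgeR adjusted p = 2.11e-07 and 1.49e-05). Summing Gbp4, Gbp8 and Gbp9 in the same way gave -0.90 and -0.70 (edgeR adjusted p = 3.53e-10 and 2.70e-07), and both sums were chosen after seeing the data.

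Gbp8 differed in shape from the rest and was the least abundant per length in sham, at 0.705 CPM per kilobase of exon. It had 11, 15 and 18 counts in sham, 15, 28 and 27 after ligation and 9, 11 and 5 with cells, or 1.96 to 2.86, 3.20 to 4.05 and 0.720 to 1.53 CPM. Ligation libraries lay above sham libraries without overlap, but the log2 difference of 0.54 (95% interval -0.14 to 1.22) did not pass the threshold (edgeR adjusted p = 0.205). From ligation to cells Gbp8 fell by 1.58 on the log2 scale (SE 0.356, edgeR adjusted p = 0.00568). Gbp8 too passed the filter only through sham and ligation, and with no filter the log2 change was -1.58 (edgeR adjusted p = 0.00203). Its fall with cells relative to sham, by 1.04 on the log2 scale (edgeR adjusted p = 0.0352), was lost with library totals in place of TMM factors, with DESeq2 and with no count filter (adjusted p = 0.0673, 0.0776 and 0.0629). It was also lost without sham replicate 2, sham replicate 3, cell replicate 1 or cell replicate 3, with edgeR adjusted p = 0.0787, 0.120, 0.0668 and 0.148.

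**Figure D2:**
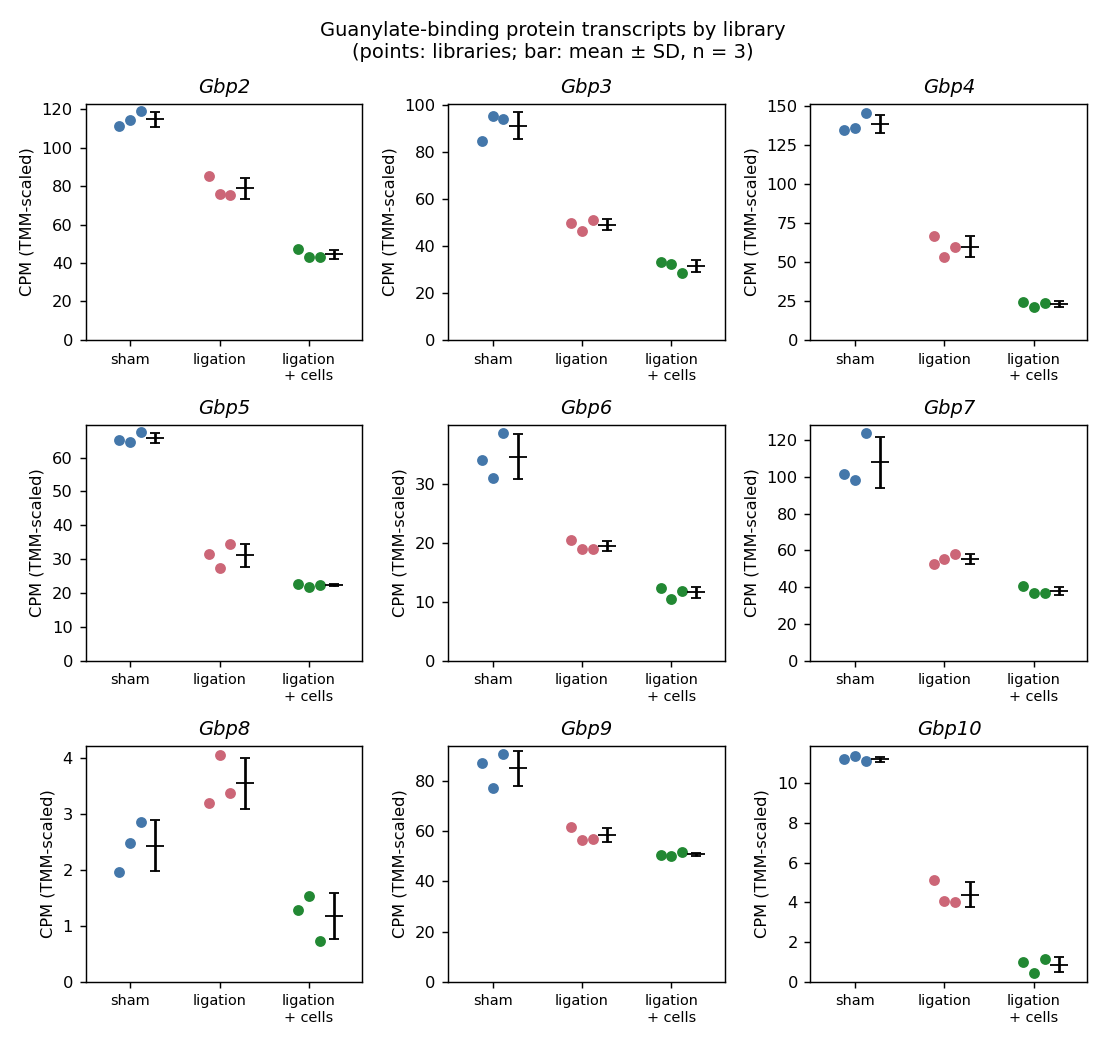
TMM-scaled CPM of each gene in the 9 libraries, points coloured by group, with the mean ± SD (n = 3) beside them and every axis starting at 0. Gbp4 steps down from 135 to 146 CPM in sham to 21.1 to 24.3 CPM with cells, Gbp9 has its cell libraries at 50.2 to 51.6 CPM just below its ligation libraries, and Gbp8 has its highest libraries after ligation.

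All 9 genes passed the filter on low counts, Gbp8 and Gbp10 through their sham and ligation libraries, so the comparisons with the cell group are counted over the other 7 genes. The calls were set against all 13825 genes tested. After ligation, 8 of the 9 genes were lower than sham past an adjusted p of 0.05 and 0 were higher, the exception being Gbp8, while 38.2% of all genes tested were called, 18% as lower and 20.1% as higher. With library totals in place of TMM factors the split of 2783 higher and 2494 lower genes became 4966 and 1346, and that with cells relative to sham, 2899 and 2762, became 4612 and 1698. With cells relative to ligation, 6 of those 7 were lower, the exception being Gbp9, against 9.87% of all genes called, 5.69% as lower and 4.19% as higher. Relative to sham, all 7 were lower with cells, where 40.9% of all genes were called, 20% as lower and 21% as higher. The median log2 change of those 7 genes was -0.90, -0.64 and -1.54 in the 3 comparisons, beside a median over all genes of 0.01, 0.00 and -0.01. The comparisons share libraries, the ligation libraries entering the first with a plus sign and the second with a minus sign, so the counts are given side by side and their overlap is not read as a result. Libraries with non-overlapping, lower CPM were found after ligation for 8 of 9 genes, where 22.6% of all genes had them. In the comparisons with the cell group they were found for all 7 genes, where 14% and 24.5% of all genes had them. Libraries apart and higher were found for Gbp8 after ligation, where 25% of all genes had them.

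A change of at least 2-fold (1 on the log2 scale) was passed after ligation by 3 genes, Gbp4, Gbp5 and Gbp10, where 2.19% of all genes were lower by that much. With cells relative to ligation it was passed by Gbp4, Gbp8 and Gbp10, and relative to sham by the 8 genes other than Gbp9, where 1.88% and 3.18% of all genes were lower by that much. Here too Gbp8 and Gbp10, which passed the filter only where they were high, are not read against those shares.

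**Figure D3:**
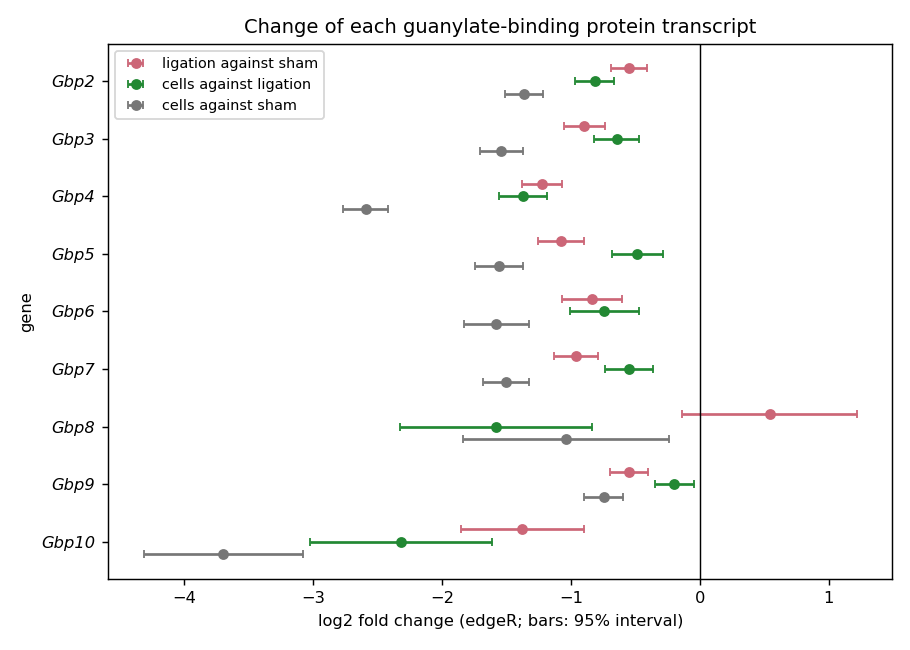
The log2 fold change of each gene from edgeR in 3 comparisons, ligation against sham (red), cells against ligation (green) and cells against sham (grey), with 95% intervals. Gbp10 and Gbp4 reach furthest to the left, at -3.69 and -2.59 with cells against sham, and the interval of Gbp8 after ligation and that of Gbp9 with cells end nearest to 0 or cross it.

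The make-up of the family differed between groups as well as its total. Gbp4 made up 21.3% ± 0.297 (SD, n = 3) of the counts of the 9 genes in sham, 16.6% ± 1.05 after ligation and 10.3% ± 0.577 with cells. Gbp9 went the other way, from 13.1% ± 0.754 to 16.2% ± 0.428 and 22.7% ± 0.922. The count ratio of Gbp4 to Gbp9 was 1.55 to 1.75 in sham libraries, 0.944 to 1.08 after ligation and 0.420 to 0.480 with cells, without overlap between groups. That ratio is taken within a library and does not depend on the scaling between libraries. The difference in this ratio is given as a description and was not tested.

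Of the other shares, those of the scarce Gbp10 and Gbp8 were small. Gbp10 held 1.73%, 1.22% and 0.380% on average in sham, ligation and cell libraries, a larger drop in proportion than that of Gbp4, and Gbp8 held 0.371%, 0.990% and 0.525%. Gbp2 held 17.6%, 21.9% and 19.9% on average in the same groups. Gbp3 held 13.6% to 14.0% and Gbp6 held 5.17% to 5.40% on average in every group, so both followed the total. The count ratio of Gbp10 to Gbp6 averaged 0.328 ± 0.0395 in sham, 0.225 ± 0.0215 after ligation and 0.0725 ± 0.0299 with cells (SD, n = 3). This ratio carries the uncertainty of reads shared between these 2 copies.

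**Figure D4:**
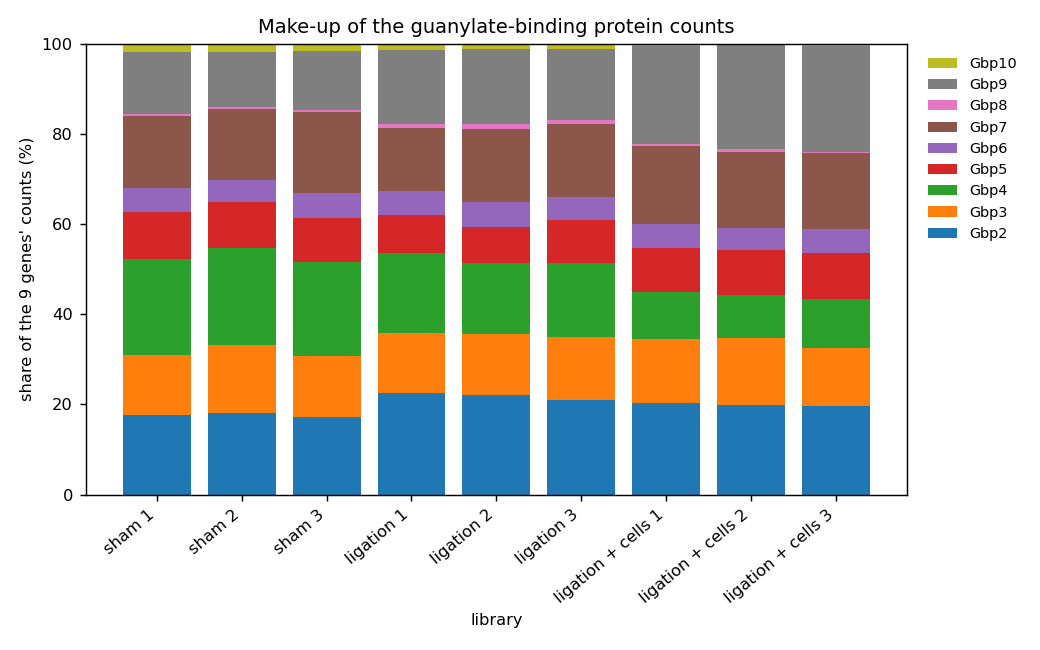
Share of each gene in the summed counts of the 9 genes, in percent, as 1 stacked bar per library. The Gbp4 band narrows from about 21.3% in sham to 10.3% with cells, while the Gbp9 band widens from 13.1% to 22.7%.

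Levels of different genes were compared per kilobase of exon. In sham the order was Gbp2 at 45.6 CPM per kilobase, Gbp3 at 27.9, Gbp7 at 19.2 ± 2.50, Gbp4 at 18.5 ± 0.777, Gbp9 at 16.5 ± 1.35, Gbp5 at 9.90, Gbp6 at 5.80, Gbp10 at 2.90 and Gbp8 at 0.705 (mean, SD, n = 3). Gbp7 and Gbp4 did not differ beyond their spread in that order. With cells Gbp2 was still first at 17.7 CPM per kilobase, but Gbp9 at 9.81 and Gbp3 at 9.60 ± 0.794 followed without a difference beyond their spread, and Gbp4 had dropped to 3.07, below Gbp5 at 3.36. Gbp10 at 0.220 ± 0.10 and Gbp8 at 0.341 ± 0.120 CPM per kilobase were then the lowest and did not differ beyond their spread. With only the exon bases not shared with another gene as the length, Gbp6 and Gbp10 stood at 8.16 and 5.40 CPM per kilobase in sham. With cells Gbp10 then stood at 0.410 and Gbp8 at 0.347 CPM per kilobase, so that their order turned.

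The signals that induce GBPs were looked up next, in lists of genes. Of the interferon-gamma pathway, 13 of 14 genes were tested, and Ifng itself was not, with 1 count over all 9 libraries. After ligation 4 were higher and 3 lower than sham, and with cells relative to ligation 0 were higher and 6 lower, with a median log2 change of 0.07 and -0.26. Over all genes 38.2% and 9.87% were called in these comparisons. The receptor chain Ifngr2 averaged 116 CPM in sham and 131 after ligation, a log2 rise of 0.17 (edgeR adjusted p = 0.0370), and the log2 difference with cells relative to ligation was 0.17 (edgeR adjusted p = 0.0826). Ifngr1 averaged 89.3, 94.0 and 78.4 CPM in the 3 groups and was lower with cells relative to ligation (log2 change -0.26, edgeR adjusted p = 0.0167).

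Other calls of that list were looked up after their values were seen. Irf1 and Nlrc5, an activator of MHC class I genes, were lower in both comparisons, with log2 changes of -0.47 and -0.48 for Irf1 and -0.55 and -0.60 for Nlrc5. Jak2, Irf8 and Socs3, a feedback inhibitor, were higher after ligation by 0.28, 0.79 and 0.62 on the log2 scale (edgeR adjusted p = 0.0112, 5.77e-05 and 0.00357). With cells relative to ligation Irf8, a factor of the monocyte lineage, and Ciita, the activator of MHC class II genes, were lower, with log2 changes of -1.16 and -2.14 (edgeR adjusted p = 3.58e-06 and 6.89e-05).

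Genes of the type I interferon pathway had smaller median changes than the GBPs, a difference that was not tested. Of 16, 15 were tested, Ifnb1 being at 0 counts in every library. After ligation 2 were higher and 3 lower, with cells relative to ligation 0 were higher and 3 lower, and the medians were -0.13 and -0.19 on the log2 scale. These 5 and 3 calls among 15 genes stand beside 38.2% and 9.87% of all genes called. Stat2 averaged 72.1, 51.8 and 43.2 CPM in the 3 groups and was lower at both steps (log2 change -0.48 and -0.27, edgeR adjusted p = 3.33e-05 and 0.0324). Irf7 was lower with cells relative to ligation (-0.30, edgeR adjusted p = 0.0179), and Oasl2 rose by 0.42 after ligation and fell by 0.38 with cells (edgeR adjusted p = 0.000523 and 0.00425). The antiviral genes Ifit1 and Isg15, looked up after their values were seen, passed the threshold in none of the 3 comparisons. Ifit1 averaged 28.4, 28.2 and 27.5 CPM and Isg15 averaged 22.3, 20.7 and 22.1 CPM. Rsad2, the largest fall of this list after ligation and also named on its value, went from 43.2 to 19.9 CPM (log2 change -1.12, edgeR adjusted p = 1.36e-07), with a log2 difference of -0.19 from ligation to cells (edgeR adjusted p = 0.401). Irf3 and Ifnar2 were the remaining calls, with log2 changes after ligation of -0.39 (edgeR adjusted p = 0.00122) and 0.25 (edgeR adjusted p = 0.0385).

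Other transcripts that interferon-gamma induces were mostly lower at both steps. Of 12 such genes, 9 were lower and 1 higher after ligation, and 10 were lower and 0 higher with cells relative to ligation, with medians of -0.75 and -0.54 on the log2 scale. Beside these counts, 18% of all genes tested were lower and 20.1% higher after ligation. With cells relative to ligation, 5.69% of all genes were lower and 4.19% higher. Psmb10, an immunoproteasome subunit, averaged 148 CPM ± 11.8 in sham, 98.2 ± 4.06 after ligation and 81.6 ± 3.08 with cells (SD, n = 3). B2m, the light chain of MHC class I, averaged 1053, 1059 and 876 CPM, and its log2 change was -0.27 with cells relative to ligation (edgeR adjusted p = 0.000416) while the log2 difference after ligation was 0.01 (edgeR adjusted p = 0.924). Serping1, which encodes the complement C1 inhibitor, was the gene that rose after ligation, by 0.65 on the log2 scale (edgeR adjusted p = 1.14e-09), and fell by 0.30 with cells (edgeR adjusted p = 0.000251). The chemokine Cxcl9, named after its values were seen, averaged 37.1 CPM ± 1.52 in sham, 11.8 ± 1.56 after ligation and 8.03 ± 1.35 with cells (SD, n = 3).

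The family most like the GBPs in function, the IRGs, which disrupt pathogen vacuoles, was lower in the same groups. All 8 IRGs were tested, 7 were lower after ligation and 8 with cells relative to ligation, with medians of -1.02 and -1.25 on the log2 scale beside the -0.90 and -0.64 of those 7 GBPs. Ifi47, listed under its older symbol Irgd, was the exception after ligation (log2 difference -0.27, edgeR adjusted p = 0.182). Over all genes tested, 18% were called lower after ligation and 5.69% with cells relative to ligation. Iigp1 stood at 283, 279 and 306 CPM in sham, 135, 128 and 121 CPM after ligation and 53.9, 45.1 and 51.3 CPM with cells. Igtp, a regulator of the other IRGs, stood at 304, 339 and 346 CPM in sham, 90.6, 76.0 and 86.1 CPM after ligation and 28.4, 33.2 and 33.3 CPM with cells, a 10.4-fold lower mean in the cell group than in sham. Irgm2 averaged 122 CPM ± 1.59, 74.4 ± 6.47 and 29.98 ± 2.76 (SD, n = 3). The difference between the medians of the GBPs and the IRGs was not tested.

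Family relatives and partners of the GBPs were counted in the same way. Of 9 other GBP and dynamin superfamily genes 8 were tested, 1 was higher (Dnm1, log2 change 0.31, edgeR adjusted p = 0.0368) and 0 lower after ligation, and 1 was higher (Atl2, 0.40, edgeR adjusted p = 0.00311) and 1 lower with cells relative to ligation. The lower gene was Gbp2b, the copy of Gbp2 next to it on chromosome 3, at 5.09, 3.28 and 1.14 CPM on average (log2 change -1.51, edgeR adjusted p = 0.00830). Its log2 difference after ligation was -0.64 (edgeR adjusted p = 0.0882). The calls among these 8 genes stand beside 38.2% of all genes called after ligation and 9.87% with cells relative to ligation. Gbp11 on chromosome 5, annotated as a polymorphic pseudogene, had too few counts to be tested.

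Autophagy adaptors and ubiquitin ligases that place GBPs on membranes held 4 higher and 2 lower of 16 after ligation, and 0 higher and 1 lower with cells relative to ligation. With cells relative to sham 7 were higher and 4 lower. Over all genes tested the shares called in those 3 comparisons were 38.2%, 9.87% and 40.9%. After ligation Map1lc3a fell by 0.33 on the log2 scale (edgeR adjusted p = 4.01e-06) and Gabarapl2, named on its call, by 0.20 (edgeR adjusted p = 0.0176). Sqstm1 and Gabarapl1 rose by 0.45 and 0.50 (edgeR adjusted p = 2.60e-07 and 5.00e-06), as did Arih1 and Lgals3, also named on their calls, by 0.64 and 1.96. Lgals3, which binds damaged vacuoles and is abundant in macrophages, was the gene lower with cells relative to ligation (log2 change -0.60, edgeR adjusted p = 0.000984). Of 11 inflammasome and pyroptosis genes 8 were tested, 3 were higher and 1 lower after ligation, and 0 were higher and 2 lower with cells relative to ligation. The higher genes were Ninj1, Aim2 and Il18 (log2 change 0.28, 0.65 and 1.76) and the lower gene was Pycard (-0.69), of which Il18 and Pycard were named on their calls. Gsdmd and Aim2 were lower with cells, by log2 changes of -0.63 and -0.77 (edgeR adjusted p = 0.00213 and 0.0450). Among 5 prenylation enzymes, which attach the lipid anchor of some GBPs, Icmt was higher after ligation (log2 change 0.23, edgeR adjusted p = 0.0182) and 0 of 5 passed the threshold with cells relative to ligation, where Icmt had edgeR adjusted p = 0.868.

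**Figure D5:**
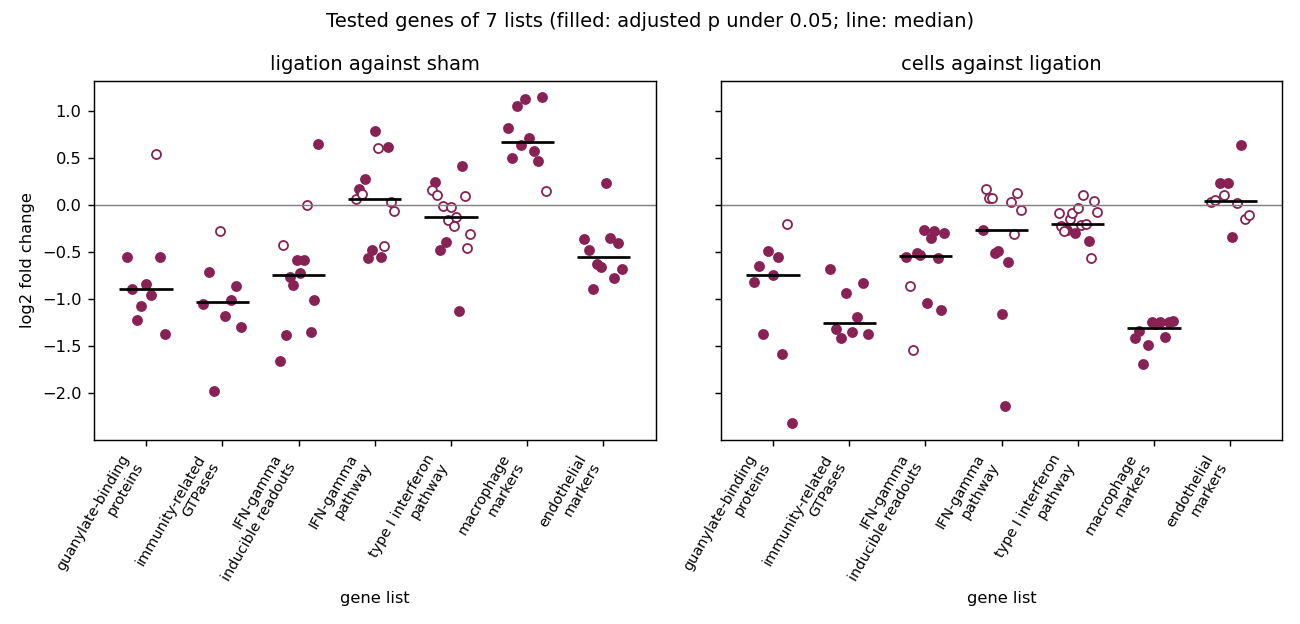
The log2 fold change of each tested gene of 7 lists, after ligation relative to sham (left) and with cells relative to ligation (right), filled where the adjusted p was under 0.05, with a line at the list's median. The medians of all 9 GBPs and of the IRGs lie between -0.74 and -1.25 in both panels, with Gbp8 above 0 on the left at 0.54, whereas macrophage markers lie at 0.68 on the left and at -1.30 on the right. Without Gbp8 and Gbp10, which passed the filter only where they were high, the GBP median is -0.90 on the left and -0.64 on the right.

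Markers of cells that can carry GBPs moved with the groups. Macrophage markers, 10 genes, summed to 675 to 722 CPM in sham, 1213 to 1247 CPM after ligation and 495 to 510 CPM with cells. Of these 9 were higher and 0 lower after ligation, and 0 were higher and 10 lower with cells relative to ligation. The shares over all genes tested were 20.1% called higher after ligation and 5.69% called lower with cells relative to ligation. Lyz2 averaged 282 CPM ± 13.8, 618 ± 19.3 and 261 ± 6.66 (SD, n = 3). The GBP sum and the macrophage sum therefore went in opposite directions after ligation and in the same direction with cells. Gbp8 was the GBP whose mean was highest in the same group as the macrophage sum.

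Endothelial markers, 10 genes, summed to 2451 to 2564 CPM in sham, 1687 to 1808 CPM after ligation and 1807 to 1847 CPM with cells. They were lower in 9 and higher in 1 (Vwf, named on its call) of 10 genes after ligation, and with cells relative to ligation 3 were higher and 1 lower. Among all genes tested, 18% were lower and 20.1% higher after ligation, and 5.69% lower and 4.19% higher with cells relative to ligation. Kdr averaged 516, 278 and 327 CPM in the 3 groups. Neutrophil markers summed to 36.2 to 44.1, 12.8 to 20.1 and 5.47 to 6.10 CPM over 5 genes, with Ly6g at 0 counts in sham and cell libraries. S100a8 and S100a9 were lower after ligation, whereas Csf3r averaged 4.14 CPM in sham and 6.34 after ligation (log2 difference 0.64, edgeR adjusted p = 0.116). Dendritic cell markers summed to 45.4 to 54.0, 33.2 to 39.2 and 28.4 to 33.9 CPM over 6 genes. Most of the dendritic cell sum was Zbtb46, at 42.9, 26.8 and 24.7 CPM on average, which was lower after ligation (log2 change -0.68, edgeR adjusted p = 6.47e-06), whereas Itgax was higher (1.92, edgeR adjusted p = 0.00633). Natural killer cell markers, 8 genes, summed to 1.25 to 2.22, 2.13 to 3.91 and 0.567 to 1.11 CPM, and 0 of them had enough counts for a test. Fibroblast markers summed to 2208 to 2274, 3853 to 3960 and 3658 to 3739 CPM, and cardiomyocyte markers to 52426 to 53591, 39834 to 41971 and 39804 to 40700 CPM. Of 7 fibroblast markers 5 were higher and 1 (Pdgfra, named on its call) lower after ligation. Of 8 cardiomyocyte markers 6 were lower and 1 (Ryr2, named on its call) higher. Atrial markers, 4 genes, summed to 474 to 564, 841 to 1608 and 1569 to 2178 CPM. Nppa carried the rise of this sum after ligation, at 107, 895 and 792 CPM on average in the 3 groups. The other 3 atrial genes were lower after ligation, and 3 of the 4 were higher with cells relative to ligation. Myl7 and Myl4 stood at 157 and 198 CPM on average in sham, 98.8 and 144 after ligation and 299 and 498 with cells. Smooth muscle and pericyte markers, 6 genes of which 5 were tested, summed to 1571 to 1622, 1118 to 1145 and 1126 to 1158 CPM, with 4 lower after ligation and 1 higher and 1 lower with cells relative to ligation. Erythroid markers, 5 genes, summed to 871 to 919, 1496 to 1595 and 663 to 679.6 CPM. After ligation 4 of them were higher and 1 was lower. The lower gene was Hba-a2, named on its call, with 33 to 60 counts in sham libraries and 0 to 3 in those of both ligated groups. Skeletal muscle markers, 5 genes, summed to 1558 to 1625, 1840.3 to 1909 and 2452 to 2515 CPM. The skeletal muscle sum was mostly Acta1 and Ckm, which the heart also expresses, and with cells relative to ligation 1 of its 4 tested genes was higher and 2 were lower. Epithelial and mesothelial markers, 7 genes, summed to 21.9 to 28.3, 181 to 211 and 139.96 to 151 CPM, with all 6 tested higher after ligation. The part of these marker differences in the GBP results was not tested.

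Genes whose pattern was most like that of Gbp2, the member with the highest mean, were sought over 13785 genes by the correlation of log2 CPM over the 9 libraries. The 5 with the highest Pearson r outside the family were Tap1 (0.996), Iigp1 (0.994), Slc43a3 (0.989), Tapbp (0.987) and Xdh (0.986). Tap1 and Tapbp act in peptide loading of MHC class I, and Tap1 averaged 78.7 CPM ± 10.1 in sham, 47.9 ± 3.45 after ligation and 23.1 ± 1.60 with cells (SD, n = 3). Xdh, the xanthine oxidoreductase, averaged 323 CPM ± 11.4, 210.03 ± 6.52 and 138 ± 6.61, and the transporter gene Slc43a3 averaged 184, 152 and 120.1 CPM. Within the family, r with Gbp2 was 0.994 for Gbp4, 0.987 for Gbp10, 0.983 for Gbp6, 0.971 for Gbp3, 0.949 for Gbp7, 0.933 for Gbp5, 0.915 for Gbp9 and 0.662 for Gbp8. These are descriptions of 9 libraries in 3 groups that share their scaling, and any gene with 3 separate levels in the same order scores high.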

How the data were processed

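The 9 RNA-seq libraries, 3 per group, are of NOD-SCID heart, the border zone per the labels, with groups and replicate numbers from the titles. For cell replicates 2 and 3 the source field gives a FOXO number other than that of the title and treatment, and the title was followed. Each deposited file holds unnormalized read counts by gene, made by the authors with build mm10 per the submitters' processing notes. The aligner, counter, strand setting and annotation release are not given in the sources used here. Reads assigned to no gene (4.14% to 4.91% of assigned, unassigned and ambiguous reads) were left out.

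GENCODE's GRCm38 annotation named 53274 of 53465 gene IDs and also gave exons and coding sequences, aligned with Biopython 1.88. Genes were kept with filterByExpr, scaled with TMM factors and tested in R 4.3.3 with edgeR 4.0.16 (glmQLFit, glmQLFTest) in 1 model of 9 libraries with 6 residual degrees of freedom. The two-sided p-values were adjusted over 13825 genes (Benjamini-Hochberg, threshold 0.05). The SE is the log2 fold change divided by the square root of the F statistic. Figures were drawn with matplotlib 3.10.9. On simulated counts of 13630 genes for ligation against sham, 175 of 200 genes changed by 1 on the log2 scale were called with the right sign, with 7 unchanged genes called. The simulation gave every gene the same spread and changed only those 200 genes, whereas 5277 genes were called in the data. It therefore does not give the share of true or false calls in these data.

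The members and lists were chosen with earlier results of these data known. Genes named are all members, up to 3 genes per list past the threshold with the highest mean CPM, and the 5 genes most like the most abundant member, and others are marked in the text as named on their values. Alternatives were library totals, DESeq2 1.42.0, limma-voom (limma 3.58.1), other filters, fits of the 2 groups compared, removal of mitochondrially encoded genes, a 2-fold minimum, a replicate block and leaving out each library. Libraries of sham replicates 1 and 2, and of ligation replicates 2 and 3, share a name stem in their file headers, and summing them was added after seeing the data, as was summing overlapping genes. Reads of the implanted cells were not analysed here. Some results that the rule for named genes gave are not reported here.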

Additional observations from a re-analysis of the deposited data

Results flagged for a closer look

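Reads that the counting assigned to no gene, which enter no comparison above, took 4.75% ± 0.155 (SD, n = 3) of reads after ligation, above the 4.21% ± 0.0350 in sham and the 4.22% ± 0.113 with cells. The ligation libraries ranged from 4.60% to 4.91% and did not overlap with the other groups. Reads assigned to more than 1 gene, which bear on the overlapping chromosome 5 genes, took 8.39%, 8.48% and 8.58% on average in sham, ligation and cell libraries, with overlapping ranges. The part of either share in the GBP counts was not tested.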

How the results depend on the processing

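No GBP log2 change turned its direction under any alternative run. Over the 7 genes other than Gbp8 and Gbp10, 7, 6 and 7 were called in the 3 comparisons under each of 18 alternatives. A required change of at least 1 on the log2 scale left 3, 3 and 8 of all 9 members. Counts over 9 members below include Gbp8 and Gbp10, which passed the filter only where they were high. The same requirement left 979, 314 and 1032 of the 5277, 1365 and 5661 genes called over all genes, since it removes smaller changes by construction. Leaving out 1 library at a time gave 8, 8 and 8 to 9 members, and 4482 to 5459, 951 to 1398 and 5055 to 5746 genes in all. Scaling by library totals moved the median log2 change of all genes to 0.20, -0.03 and 0.15, a shift against which the GBP changes are to be read, and 8, 8 and 8 members were called. With the replicate block, 8, 8 and 9 members and 5134, 1230 and 5511 genes were called, and every GBP call stayed on its side of the threshold. Deviations of same-numbered libraries correlated between -0.121 and 0.133 over 9414 genes, so the numbers were not taken as pairs. Summing the libraries that share a header stem gave 8, 8 and 9 members, with fewer libraries in the sham and ligation groups. Depth limits Gbp8 and Gbp10, which had 3 to 11 counts in each cell library.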
